A study of Mus musculus with 2 samples.

Results

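A set of 10 genes that hold back growth and division in resting lymphocytes was followed in RNA-seq counts of mouse γδ T cells from spleen. They were chosen by symbol as the BTG/TOB antiproliferative genes Btg1, Btg2, Btg3, Tob1 and Tob2 and the growth brakes Pik3ip1, Ddit4, Tsc22d3, Txnip and Slfn2. All 10 were found among the 24091 genes of the deposited table, and all 10 passed the filter of at least 1 CPM on average over both libraries, which 11715 genes met (CPM stands for counts per 1000000 after scaling). There was 1 library of IL-2 expanded cells and 1 library of freshly isolated cells, both from cells that the labels describe as sorted by FACS. The expanded cells had been stimulated through CD3 (antibody on the plate) and CD28 (antibody in solution) and kept with recombinant mouse interleukin 2 at 100 U/ml for 5 days. The growth and treatment protocols are the same text for both libraries, and only the treatment label and the design text set the freshly isolated library apart as not expanded. Mouse strain, age, sex and the number of animals behind each library are not stated in the labels. The contrast combines receptor stimulation, culture and IL-2, which cannot be told apart.

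The quiescent state of a T cell is kept by proteins that limit mRNA, nutrient signalling and glucose use. BTG and TOB proteins bind the CNOT7 and CNOT8 subunits of the CCR4-NOT deadenylase through a shared amino-terminal domain and speed the removal of poly(A) tails, and in mice Btg1 and Btg2 together keep T cells quiescent. PIK3IP1 is a membrane protein that inhibits PI3 kinase, and DDIT4 (also called REDD1) inhibits the growth kinase complex mTORC1 through the TSC1/TSC2 complex. TSC22D3 (also called GILZ) is a glucocorticoid-induced leucine zipper protein, TXNIP is an arrestin-type protein that binds thioredoxin and lowers glucose uptake, and mice with a mutation of Slfn2 have T cells that fail to stay quiescent.

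The expanded library held less RNA of most of these genes, with Ddit4 as the exception. At least 2-fold lower levels were found in the expanded library for 7 of the 10 genes (Btg1, Btg2, Btg3, Tob1, Tob2, Pik3ip1 and Tsc22d3), beside 25.0% of all genes compared, and 5 of the 10 were at least 4-fold lower, beside 13.5% of all genes. Ddit4 alone of the 10 was at least 2-fold higher, beside 22.4% of all genes compared, and it was also at least 4-fold higher, as were 8.92% of all genes. Txnip and Slfn2 lay between. The 10 genes were chosen with earlier results of these data known, so these shares are a description and not a test. On the log2 scale, the median fold of expanded cells over freshly isolated cells was -2.42 for the 10 genes and 0.04 for all genes compared. The summed level of the 10 genes was 1135 CPM in expanded cells and 6852 CPM in freshly isolated cells, 6.04-fold lower. Btg1 (2280 CPM), Tsc22d3 (1889 CPM) and Btg2 (1255 CPM) were the largest parts of the sum in freshly isolated cells. With 1 library per group no difference could be tested, and each 95% interval given below is exact but holds the error of counting alone, not the spread between animals or cultures. In such bulk RNA, fewer cells of a type and less RNA per cell cannot be told apart.

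**Figure D1:**
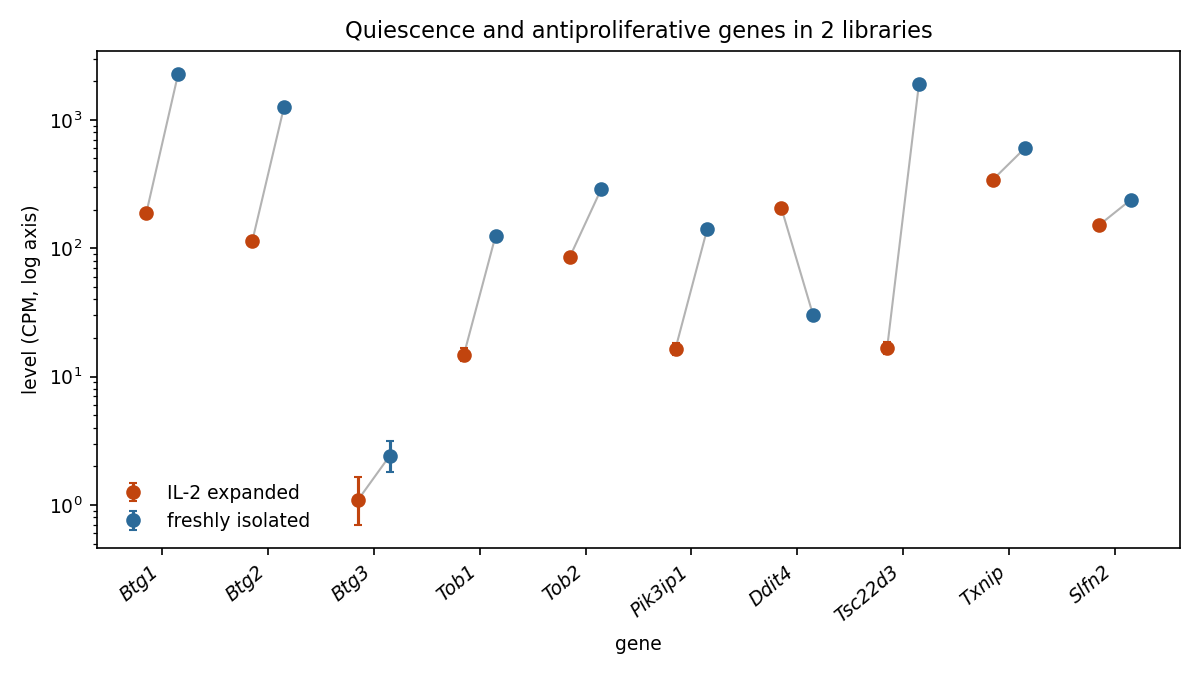
Level of each of the 10 genes (CPM, log axis) in the IL-2 expanded library (left point of each pair) and the freshly isolated library (right point), with exact 95% Poisson intervals of the counts as bars, which are mostly smaller than the points. Ddit4 is the gene whose expanded point is the higher one, and Tsc22d3 has the longest line, with 16.7 CPM in expanded cells against 1889 CPM in freshly isolated cells.

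The total count was 22204099 in the expanded library and 20379385 in the freshly isolated library. One count was worth 0.0476 CPM in the expanded and 0.0465 CPM in the freshly isolated library. CD3 transcripts, which define T cells, were present in both, with Cd3e at 688 CPM in expanded and 734 CPM in freshly isolated cells. Of 12 T cell genes listed, 11 were found in the deposited table. Of these 11, 7 lay within 2-fold, as did 6164 of the 11715 genes compared. Cd5 (4.42 CPM in expanded and 132 CPM in freshly isolated cells), Cd2 (76.2 CPM in expanded and 396 CPM in freshly isolated cells) and Lck (563 CPM in expanded and 1184 CPM in freshly isolated cells) were at least 2-fold lower, Lck under 2-fold when libraries were scaled to the CD3 genes. Thy1 was higher, at 2278 CPM in expanded and 847 CPM in freshly isolated cells. With Thy1 offsetting the lower genes, the 11 summed to 6034 CPM in expanded and 6025 CPM in freshly isolated cells. The constant gene of the δ chain was not among these 11, so the γδ identity of the cells was not checked with it. The freshly isolated library also held RNA of other spleen cells. The 14 B cell markers summed to 4.76 CPM in expanded cells, with 7 of the 14 at 0 counts, and to 959 CPM in freshly isolated cells. The 18 macrophage and monocyte markers summed to 24.5 CPM in expanded cells, with 12 of the 18 at 0 counts, and to 1098 CPM in freshly isolated cells. Cd68 made up most of that expanded sum and was under 2-fold apart (20.7 CPM in expanded and 38.3 CPM in freshly isolated cells). Of 16 measured markers of this list, 15 were at least 2-fold lower, beside 25.0% of all genes compared. The 12 dendritic cell and MHC class II markers summed to 63.4 CPM in expanded and 1340 CPM in freshly isolated cells, with 2 of the 12 at 0 counts in expanded cells. Bst2 made up most of that expanded sum and was not lower, at 48.1 CPM in expanded and 31.4 CPM in freshly isolated cells. Of 9 measured markers of this list, 8 were at least 2-fold lower. None of these markers was at 0 counts in freshly isolated cells. B cells and macrophages can express several of the 10 genes too, and the part of these cells in the folds below was not tested.

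Btg1 and Btg2 had the highest levels of the BTG/TOB genes in both libraries, also per kb of gene model. Btg1 (chromosome 10, 96617001 to 96622811, plus strand, build GRCm38) had 3980 counts, or 189 CPM, in expanded cells and 49085 counts, or 2280.3 CPM, in freshly isolated cells. That is 12.04-fold lower in expanded cells, with a counting interval from 11.7 to 12.4. Of the 11715 genes, 750 had a lower fold than Btg1. Btg2 (chromosome 1, 134074865 to 134079155, minus strand), which is also an immediate early gene and a p53 target, had 2379 counts, or 113 CPM, in expanded cells and 27015 counts, or 1255 CPM, in freshly isolated cells. It was 11.1-fold lower (interval 10.6 to 11.6), so the intervals of the folds of Btg1 and Btg2 do not overlap although they lie close together. The near-identical copies Btg1-ps1 and Btg1-ps2 had 0 and 1 counts in each library, and reads that match both Btg1 and a copy may not have been counted.

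Tob1 (chromosome 11, 94211454 to 94215492, plus strand), a negative regulator of T cell proliferation, had 311 counts, or 14.8 CPM, in expanded cells and 2696 counts, or 125 CPM, in freshly isolated cells, 8.47-fold lower (interval 7.53 to 9.55). Its relative Tob2 (chromosome 15, 81848270 to 81858326, minus strand) had 1787 counts, or 85.0 CPM, in expanded cells and 6265 counts, or 291 CPM, in freshly isolated cells, 3.42-fold lower (interval 3.25 to 3.61). Tob2 was thus less far down than Tob1, Btg1 or Btg2, and the counting interval of its fold lies apart from theirs. Btg3 was close to the limit of measurement, with 23 counts, or 1.09 CPM, in expanded cells and 52 counts, or 2.42 CPM, in freshly isolated cells. Its fold of 2.21 lower has an interval from 1.33 to 3.78, which takes in folds under 2. The deposited span of Btg3 covers 27.7 Mb of chromosome 16 (50698681 to 78377181), whereas RefSeq on GRCm38.p6 places the gene at 78359860 to 78377181, so its count may come from more than one placement or miss reads that match both. The sixth family gene, Btg4, had 0 counts in both libraries.

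The make-up of the BTG/TOB transcripts differed between the libraries. Summed over the 5 genes, the level was 403 CPM in expanded and 3954 CPM in freshly isolated cells, 9.80-fold lower. Tob2 took 21.1% of the family's counts in expanded cells (exact Clopper-Pearson 95% interval 20.2 to 21.96) and 7.36% in freshly isolated cells (7.19 to 7.54). Btg1 took 46.9% in expanded cells (45.9 to 48.0) and 57.7% in freshly isolated cells (57.3 to 58.0), and Btg2 took 28.1% in expanded cells (27.1 to 29.0) and 31.7% in freshly isolated cells (31.4 to 32.1). Per kb of gene model, where genes can be compared with each other, Btg1 and Btg2 were near each other in both libraries, with a ratio of Btg1 to Btg2 of 1.03 in expanded and 1.12 in freshly isolated cells. The ratio of Tob2 to Tob1 per kb was 3.29 in expanded and 1.33 in freshly isolated cells.

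**Figure D2:**
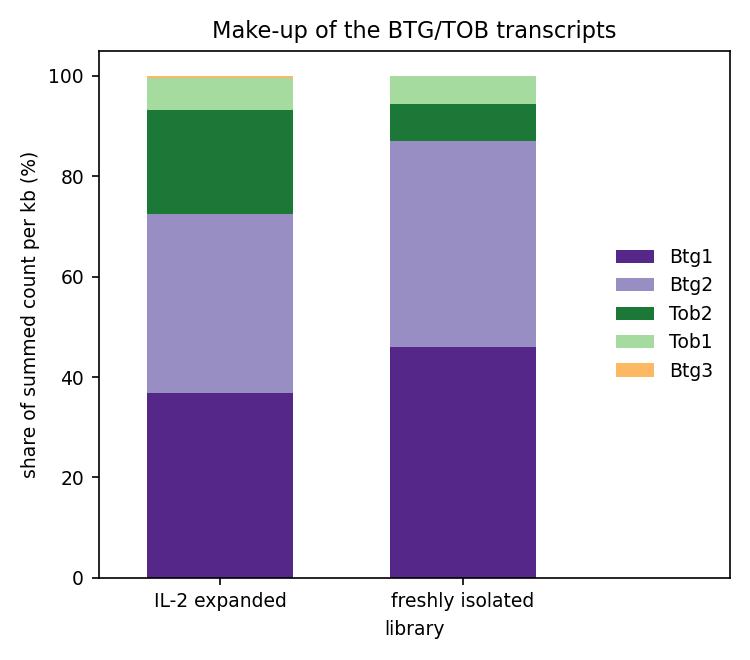
Share of each BTG/TOB gene in the family's summed count per kb of gene model (%), in the IL-2 expanded library (left bar) and the freshly isolated library (right bar). Tob2 is 20.7% of the left bar and 7.35% of the right bar, while Btg3, at 0.406% of the left bar and 0.0928% of the right bar, is hardly visible.

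Promoter sequences of 4 of the genes are shown. Btg1, Btg2 and Tob1 are the BTG/TOB genes that were at least 4-fold lower, and Txnip, which was under 2-fold lower, has a well-studied promoter. Btg3, Tob2, Pik3ip1 and Tsc22d3 were at least 2-fold lower too but are not shown. Each sequence is the 250 bases before the RefSeq start on GRCm38.p6, 5′ to 3′ on the gene's strand. The places are chr10:96616751-96617000 (plus strand) for Btg1, chr1:134079156-134079405 (minus strand) for Btg2, chr11:94211204-94211453 (plus strand) for Tob1 and chr3:96557707-96557956 (plus strand) for Txnip. Capitals mark exact matches, on either strand, to the motifs named after the sequences.
Btg1: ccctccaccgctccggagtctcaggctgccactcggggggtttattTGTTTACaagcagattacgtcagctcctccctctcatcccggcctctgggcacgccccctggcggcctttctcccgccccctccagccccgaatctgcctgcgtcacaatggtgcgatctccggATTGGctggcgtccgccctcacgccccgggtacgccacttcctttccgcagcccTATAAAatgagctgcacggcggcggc
Btg2: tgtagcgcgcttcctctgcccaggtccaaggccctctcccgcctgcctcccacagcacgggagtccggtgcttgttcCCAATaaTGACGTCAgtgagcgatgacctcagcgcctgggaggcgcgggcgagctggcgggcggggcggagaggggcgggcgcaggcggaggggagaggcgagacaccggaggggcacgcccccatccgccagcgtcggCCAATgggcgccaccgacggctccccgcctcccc
Tob1: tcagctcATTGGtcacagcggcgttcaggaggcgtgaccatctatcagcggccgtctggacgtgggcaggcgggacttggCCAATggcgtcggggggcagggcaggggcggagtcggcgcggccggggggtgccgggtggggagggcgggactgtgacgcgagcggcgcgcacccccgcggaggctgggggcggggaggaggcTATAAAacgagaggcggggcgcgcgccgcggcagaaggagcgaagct
Txnip: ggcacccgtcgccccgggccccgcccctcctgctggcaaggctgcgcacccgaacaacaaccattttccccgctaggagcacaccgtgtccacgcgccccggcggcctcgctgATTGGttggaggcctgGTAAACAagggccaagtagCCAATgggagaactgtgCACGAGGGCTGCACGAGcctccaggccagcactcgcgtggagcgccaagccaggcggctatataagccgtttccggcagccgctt

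All 10 genes matched the RefSeq promoter table by symbol, with 13 windows, since Btg3 and Tsc22d3 have several starts. The forkhead core GTAAACA, the motif family bound by FOXO factors, was present in the windows of Btg1 (204 to 198 bases before the start, minus strand) and Txnip (121 to 115 bases before it), and in 3.17% of 32851 promoter windows of the same length. The cyclic AMP response element TGACGTCA was present in Btg2, 166 to 159 bases before the start, and in 1.55% of all windows. A TATA box, TATAAA, was present in Btg1 (26 to 21 bases before the start) and Tob1 (47 to 42 bases), and in 12.4% of all windows, and CCAAT was present in 8 of the 13 windows and in 33.8% of all windows. Txnip held a pair of imperfect E-boxes, CACGNG and again CACGNG with 5 bases between them, 85 to 69 bases before the start, and 15 of all windows (0.0457%) held such a pair. That pattern, known as the carbohydrate response element that MondoA and ChREBP bind in this gene, was added after the sequence had been seen, and the perfect form with CACGTG in both places was found in 0 windows. The single E-box CACGTG (6.02% of all windows), the AP-1 site TGACTCA (4.46%) and the palindromic glucocorticoid response element (AGAACA and TGTTCT with 3 bases between, 0.00913%) were found in 0 of the 13 windows. Its half-site AGAACA (16.1% of all windows) was found in 1 of them, before the most upstream start of Tsc22d3. The windows of Tob2 and Pik3ip1 held none of the motifs searched. A match of letters is a description and not evidence of binding.

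The brakes on PI3 kinase and mTORC1 went opposite ways. Pik3ip1 (chromosome 11, 3330731 to 3342971, plus strand) had 347 counts, or 16.5 CPM, in expanded cells and 3048 counts, or 142 CPM, in freshly isolated cells, 8.58-fold lower (interval 7.67 to 9.61). Ddit4 (chromosome 10, 59949675 to 59951770, minus strand), a gene known to respond to hypoxia, amino acid stress and glucocorticoids, had 4326 counts, or 206 CPM, in expanded cells and 649 counts, or 30.2 CPM, in freshly isolated cells. It was 6.83-fold higher in expanded cells (interval 6.28 to 7.42), and 672 of the 11715 genes had a higher fold. The counting interval of the fold of Pik3ip1 overlaps that of Tob1.

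Of the 10 genes, Tsc22d3 was furthest apart between the libraries. Tsc22d3 (chromosome X, 140539529 to 140600522, minus strand) had 352 counts, or 16.7 CPM, in expanded cells and 40671 counts, or 1889 CPM, in freshly isolated cells, 113-fold lower (interval 102 to 126). Of the 11715 genes, 134 had a lower fold than Tsc22d3. Txnip (chromosome 3, 96557957 to 96561857, plus strand) was abundant in both libraries, with 7194 counts, or 342 CPM, in expanded cells against 12899 counts, or 599 CPM, in freshly isolated cells, 1.75-fold lower (interval 1.70 to 1.80). The antisense gene Gm15441, which overlaps Txnip, had 25 counts in expanded and 40 counts in freshly isolated cells. Slfn2 (chromosome 11, 83065112 to 83070678, plus strand) had 3163 counts, or 150.5 CPM, in expanded cells and 5109 counts, or 237 CPM, in freshly isolated cells, 1.58-fold lower (interval 1.51 to 1.65). For Txnip and Slfn2 the whole counting interval lies under 2-fold.

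**Figure D3:**
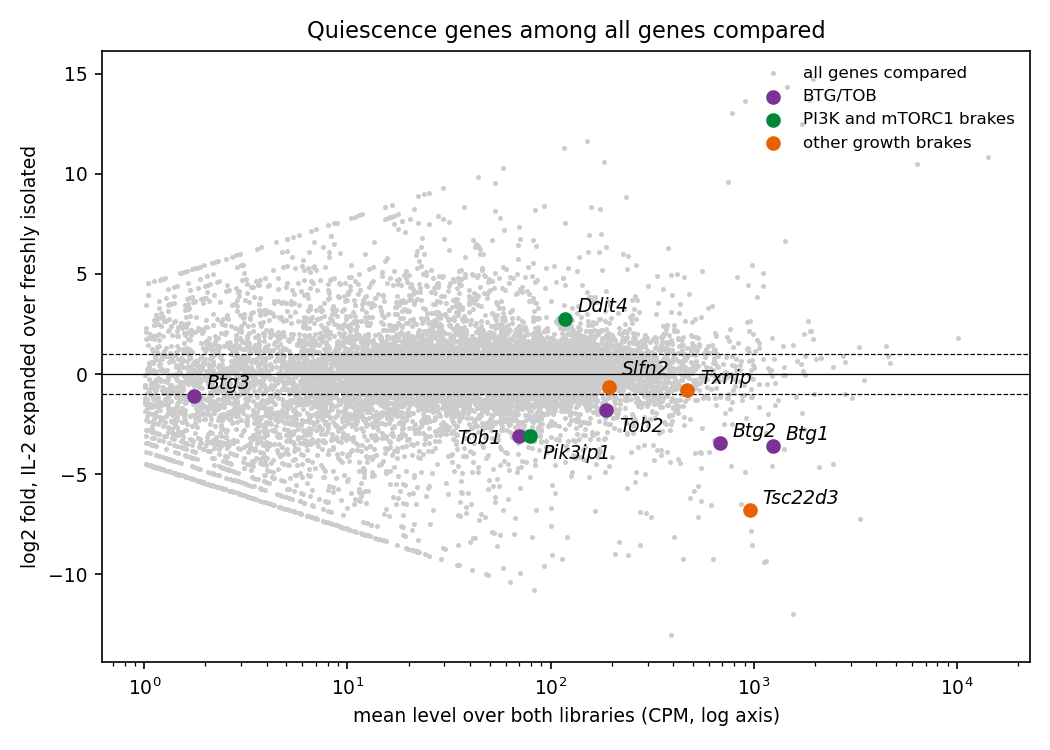
Log2 fold (IL-2 expanded over freshly isolated, vertical axis) against the mean CPM over both libraries (log axis) for the 11715 genes compared (grey) and the 10 quiescence genes (coloured by role), with dashed lines at 2-fold. Tsc22d3, Btg1 and Btg2 lie at -6.81, -3.59 and -3.47, with other genes of high mean CPM further below 0, while Ddit4 lies at 2.77.

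The order of the levels per kb of gene model was different in the 2 libraries. In expanded cells Txnip (123 CPM per kb) and Ddit4 (122 CPM per kb) led with overlapping counting intervals, followed by Slfn2 (90.5 CPM per kb). Btg1 (37.8 CPM per kb) and Btg2 (36.7 CPM per kb) came next in expanded cells, again with overlapping intervals, then Tob2 (21.3 CPM per kb). Tob1 (6.48 CPM per kb) and Pik3ip1 (5.74 CPM per kb) overlapped in expanded cells as well, above Tsc22d3 (4.60 CPM per kb) and Btg3 (0.417 CPM per kb). In freshly isolated cells the order was Tsc22d3 (519 CPM per kb), Btg1 (456 CPM per kb), Btg2 (407 CPM per kb), Txnip (215 CPM per kb), Slfn2 (143 CPM per kb), Tob2 (72.9 CPM per kb), Tob1 (54.9 CPM per kb), Pik3ip1 (49.3 CPM per kb), Ddit4 (17.9 CPM per kb) and Btg3 (0.920 CPM per kb). No neighbours in that order had overlapping counting intervals. The gene model lengths are those of the deposited table, and the transcript forms in use were not measured.

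Most partner genes of the BTG/TOB proteins lay within 2-fold, as did 6164 of the 11715 genes compared. Of 16 measured genes for CCR4-NOT, PAN2-PAN3 and poly(A)-binding proteins, 1 (6.25%) was at least 2-fold higher in expanded cells and 3 (18.75%) were at least 2-fold lower. The shares of all genes compared were 22.4% higher and 25.0% lower. The other 12 of the 16 lay between, and the median log2 fold of the 16 was 0.16. The deadenylase genes Cnot7 (108 CPM in expanded and 94.2 CPM in freshly isolated cells) and Cnot8 (58.0 CPM in expanded and 63.3 CPM in freshly isolated cells) were within 2-fold, as was the poly(A)-binding protein gene Pabpc1 (2531 CPM in expanded and 1500 CPM in freshly isolated cells). Lower members were Pan2 (22.3 CPM in expanded and 106 CPM in freshly isolated cells) and Pan3 (74.0 CPM in expanded and 288 CPM in freshly isolated cells), which form a second deadenylase, and the CCR4-type subunit Cnot6l (161 CPM in expanded and 364 CPM in freshly isolated cells). Cnot9, a scaffold subunit, was the higher one, at 141 CPM in expanded and 64.9 CPM in freshly isolated cells, and lay under 2-fold when libraries were scaled by total count.

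Among 17 genes for PI3 kinase, its opposing phosphatases and AKT, 4 (23.5%) were at least 2-fold higher and 2 (11.8%) lower (median log2 fold -0.13), beside 22.4% and 25.0% of all genes compared. The catalytic subunit gene Pik3cg stood at 246 CPM in expanded and 102 CPM in freshly isolated cells, Akt1 at 337 CPM in expanded and 156 CPM in freshly isolated cells and the phosphatase gene Inpp4b at 352 CPM in expanded and 101 CPM in freshly isolated cells. With total count scaling, Akt1 lay under 2-fold. Regulatory subunit genes went both ways. Lower were Pik3r5 (68.7 CPM in expanded and 256 CPM in freshly isolated cells) and Pik3r2 (1.81 CPM in expanded and 17.7 CPM in freshly isolated cells). Pik3r6 was higher, at 11.3 CPM in expanded and 0.557 CPM in freshly isolated cells, the latter from 12 counts. Of 21 genes for mTOR complexes, the TSC complex and stress inhibitors, 3 (14.3%) were at least 2-fold higher and 3 (14.3%) lower (median log2 fold -0.09), both below the shares of all genes, and scaling by total count made 5 lower. Mtor stood at 67.5 CPM in expanded and 52.9 CPM in freshly isolated cells, and the targets of DDIT4 action Tsc1 (31.5 CPM in expanded and 60.2 CPM in freshly isolated cells) and Tsc2 (71.2 CPM in expanded and 75.9 CPM in freshly isolated cells) were under 2-fold apart, but Tsc1 was at least 2-fold lower with scaling by total count, by upper quartiles or by totals without the top 50 genes. Higher genes were Eif4ebp1, an inhibitor of translation that mTORC1 controls (72.6 CPM in expanded and 6.32 CPM in freshly isolated cells), Sesn2, which inhibits mTORC1 when leucine is low (83.3 CPM in expanded and 7.90 CPM in freshly isolated cells), and Tbc1d7, a subunit of the TSC complex (20.1 CPM in expanded and 3.16 CPM in freshly isolated cells). Sesn2 and Eif4ebp1, like Ddit4, are known targets of the stress factor ATF4, whose part in their levels was not tested. The related sestrin gene Sesn1, a FOXO and p53 target, was lower, at 40.8 CPM in expanded and 124 CPM in freshly isolated cells, as was Rictor of mTORC2 (43.2 CPM in expanded and 216 CPM in freshly isolated cells).

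Of 15 genes around Tsc22d3 (the glucocorticoid receptor, its usual targets and TSC22 relatives), 10 (66.7%) were at least 2-fold lower and 2 (13.3%) higher. Of all genes compared, 25.0% were lower and 22.4% higher. The median log2 fold of the 15 was -1.99. The receptor gene Nr3c1 stood at 84.9 CPM in expanded and 244 CPM in freshly isolated cells. The chemokine receptor gene Cxcr4 (5.09 CPM in expanded and 1944 CPM in freshly isolated cells) and the phosphatase gene Dusp1 (18.6 CPM in expanded and 1714 CPM in freshly isolated cells) were among the lower ones, as was the transcription factor gene Zbtb16, with 4 counts in expanded and 491 counts in freshly isolated cells. Fkbp5, a receptor co-chaperone and a classical glucocorticoid target, was higher, at 424 CPM in expanded and 161 CPM in freshly isolated cells. The paralogue Tsc22d1 stood at 6.80 CPM in expanded and 85.8 CPM in freshly isolated cells. Il7r of these 15 genes is also counted among the quiescence factors, and Dusp1 and Nfkbia among the immediate early genes.

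Around Txnip, 4 of 14 measured genes for arrestins, thioredoxins and glucose use were at least 2-fold higher and 4 lower (28.6% each, median log2 fold 0.41), beside 22.4% higher and 25.0% lower of all genes. Thioredoxin, Txn1, which TXNIP binds, stood at 430.1 CPM in expanded and 74.0 CPM in freshly isolated cells, and its reductase gene Txnrd1 at 346 CPM in expanded and 111 CPM in freshly isolated cells. The hexokinase gene Hk2 (285 CPM in expanded and 16.5 CPM in freshly isolated cells) and the glucose transporter gene Slc2a1 (198 CPM in expanded and 65.6 CPM in freshly isolated cells) were higher as well. The arrestin relatives Arrdc3 (37.3 CPM in expanded and 208 CPM in freshly isolated cells) and Arrdc1 (29.7 CPM in expanded and 79.1 CPM in freshly isolated cells), and Mlxip, which encodes MondoA (80.3 CPM in expanded and 220.3 CPM in freshly isolated cells), were lower. Arrdc4, another MondoA target, was low in both, at 5.80 CPM in expanded and 6.92 CPM in freshly isolated cells.

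The other Schlafen genes went both ways, with 2 of 5 measured (40%) at least 2-fold higher and 3 (60%) lower. The shares of all genes compared were 22.4% higher and 25.0% lower. Slfn9 stood at 30.4 CPM in expanded and 5.16 CPM in freshly isolated cells, whereas Slfn5 (6.66 CPM in expanded and 145 CPM in freshly isolated cells), Slfn1 (17.5 CPM in expanded and 73.3 CPM in freshly isolated cells) and Slfn8 (37.8 CPM in expanded and 119 CPM in freshly isolated cells) were lower. These genes lie in a cluster of similar sequences, so the division of reads among them is uncertain.

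Other factors named with lymphocyte quiescence were lower in most cases. Of 25 measured, 17 (68%) were at least 2-fold lower and 1 (4%) was higher, beside 25.0% and 22.4% of all genes compared. The median log2 fold of the 25 was -1.96. Foxo1, a factor that keeps naive T cells quiescent, stood at 89.6 CPM in expanded and 432 CPM in freshly isolated cells, Klf2 at 3.47 CPM in expanded and 2284 CPM in freshly isolated cells, Klf4 at 1.19 CPM in expanded and 431 CPM in freshly isolated cells and Tcf7 at 8.18 CPM in expanded and 1932 CPM in freshly isolated cells. The higher one was Cdkn2c, an inhibitor of CDK4 and CDK6 (31.0 CPM in expanded and 9.38 CPM in freshly isolated cells). Of the other CDK inhibitor genes in this list, Cdkn1b was lower, at 53.3 CPM in expanded and 419 CPM in freshly isolated cells. Cdkn2d was under 2-fold apart, at 55.0 CPM in expanded and 44.3 CPM in freshly isolated cells. Cell division genes were at least 2-fold higher in 24 of 25 cases (96%), beside 22.4% of all genes compared. The median log2 fold of these 25 was 4.05, with Mki67 at 754 CPM in expanded and 24.1 CPM in freshly isolated cells.

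Immediate early genes and genes known to respond to tissue dissociation were mostly lower in the expanded library in the same comparison. Of 29 such genes, 24 (82.8%) were at least 2-fold lower and 1 (3.45%) higher, beside 25.0% and 22.4% of all genes compared. The median log2 fold of the 29 was -3.79. The summed level of the 29 was 2307 CPM in expanded and 29645 CPM in freshly isolated cells. Of the 29, Zfp36 is also counted among the quiescence factors, and Dusp1 and Nfkbia among the genes around Tsc22d3. Fosb stood at 0.666 CPM in expanded and 3101 CPM in freshly isolated cells. Ier3 was the higher one, at 48.6 CPM in expanded and 4.23 CPM in freshly isolated cells. Btg2 belongs to this class of genes. The part of cell handling was not tested for Btg2, nor for Btg1, Tsc22d3 or the other quiescence genes followed here.

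**Figure D4:**
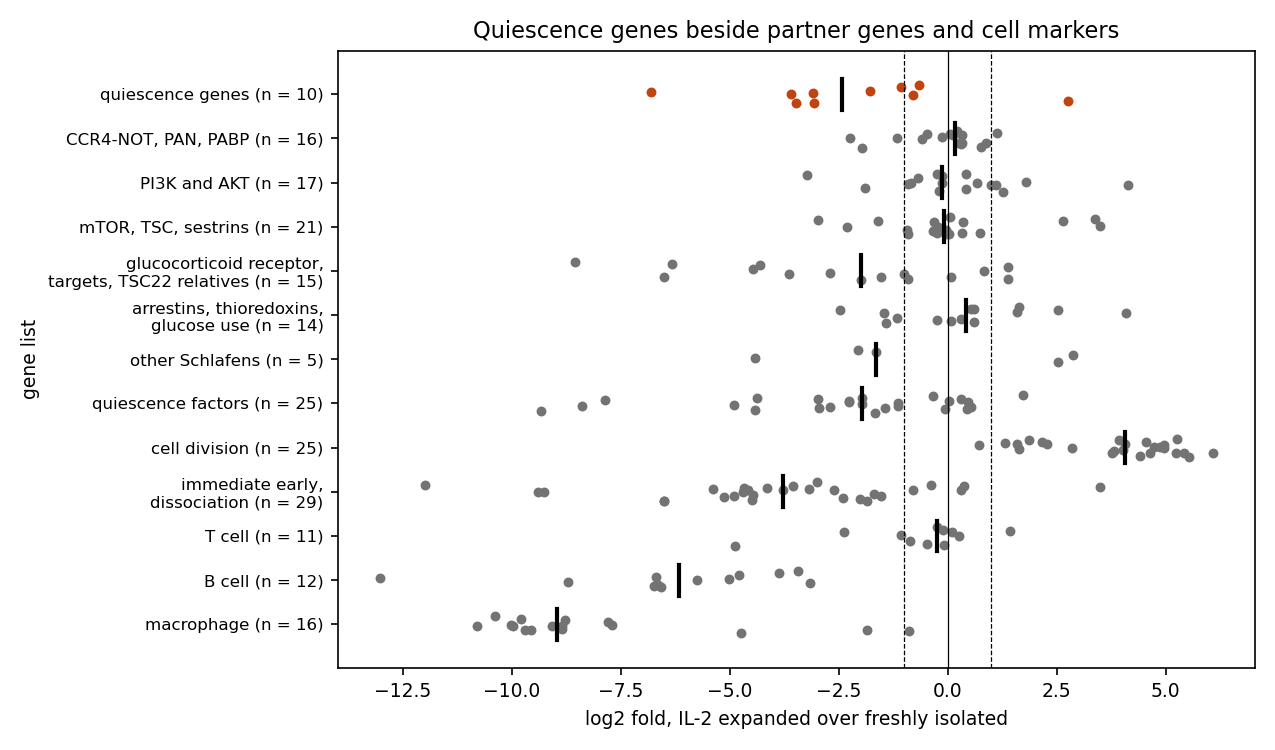
Log2 fold (IL-2 expanded over freshly isolated, horizontal axis) of each gene with at least 1 CPM on average, by gene list (rows), with the list's median as a bar and dashed lines at 2-fold; vertical scatter within a row has no meaning. The median of the 10 quiescence genes, -2.42, lies left of that of the CCR4-NOT list (0.16) and the T cell list (-0.25) and right of those of the B cell (-6.16) and macrophage (-8.96) markers.

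With the libraries scaled to the summed counts of Cd3d, Cd3e, Cd3g and Cd247, the log2 folds were -6.72 for Tsc22d3, -3.50 for Btg1, -3.38 for Btg2 and 2.86 for Ddit4. Under that scaling Btg3, at -0.99, no longer reached 2-fold, which left 6 of the 10 genes lower.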

How the data were processed

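RNA-seq counts of 1 IL-2 expanded and 1 freshly isolated library were analysed. The deposited values are raw read counts per gene symbol, which the authors did not normalise, with the length of each gene model in kb. Per the submitters' processing notes, the builds were mm10 and GRCm38, and the tools were HTSeq 0.6.0, STAR 2.6.0, edgeR 3.28.1 and bcl2fastq 2.18.0.12. Their settings, the annotation release and the use of strand are not stated, so overlapping and antisense genes, and genes with near-identical copies, are uncertain.

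Libraries were scaled with TMM factors (edgeR 4.0.16, R 4.3.3), 0.947 for the expanded and 1.06 for the freshly isolated library. A log2 fold sets expanded cells over freshly isolated cells after a prior count of 2 was added, and printed folds of single genes are plain ratios of CPM. Genes averaging at least 1 CPM over both libraries were counted by size of fold. With 1 library per group no test was made. Intervals of folds come from the conditional binomial distribution of the counts and those of shares from Clopper-Pearson (scipy 1.17.1). Since the reads carry no molecular identifiers and may repeat a molecule, these intervals cover counting error only. The calculation was tested on simulated data.

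The 10 genes and the partner lists were chosen with earlier results of these data known. Named genes are the 10, up to 3 genes furthest up and 3 furthest down of each list with a mean of at least 10 CPM and at least 2-fold apart, and a short set of regulators and partners always reported. The text names a selection of these. Bst2, Cd68, Pik3r2, Pik3r6, Cdkn1b and Cdkn2d were added from the lists after their values were seen.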

Additional observations from a re-analysis of the deposited data

How the results depend on the processing

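No paired analysis was possible because each group has 1 library, and for the same reason no library could be left out. Over 10 alternatives the number of genes at least 2-fold lower was 6 or 7 of the 10, with Btg3 as the one that moved, while 5 were at least 4-fold lower and 1 was at least 2-fold higher throughout. The summed CPM of the 10 genes in expanded cells was 0.166 times that in freshly isolated cells. It was 0.148 times with scaling by total count, 0.163 with DESeq2 1.42.0 size factors, 0.158 with upper quartiles, 0.157 with totals that omit the top 50 genes of either library and 0.1765 with CD3 scaling. The median log2 fold of the 10 genes was -3.07 with a mean of at least 5 CPM, where Btg3 is left out, and between -2.58 and -2.33 under the other alternatives that give a median, which the call by the bound of the counting interval does not. Scaling by total count moved the median log2 fold of all genes to -0.12, and CD3 scaling moved it to 0.13, from 0.04. No gene of the 10, and no named gene at least 2-fold apart, changed sign among 532 recomputed log2 folds. Of 320 recomputed list counts, 6 moved by over 1.5 times: CCR4-NOT higher and mTOR lower with scaling by total count, neutrophil and platelet lower with no filter, and B cell, erythroid, and neutrophil and platelet lower with a mean of at least 5 CPM. Counts limited Btg3 most, with 23 counts in expanded and 52 counts in freshly isolated cells.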

Other observations

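Among the neutrophil and platelet markers, 11 of 13 had 0 counts in the expanded library. The exceptions there were Ly6g, with 374 counts, or 17.8 CPM, in expanded cells and 0 counts in freshly isolated cells, and Itga2b, at 0.333 CPM in expanded and 4.65 CPM in freshly isolated cells. Both were picked out after their values were seen. Other erythroid markers than Klf1 and Epor had 0 counts in expanded cells, and the 7 erythroid markers in the table summed to 0.381 CPM in expanded and 89.5 CPM in freshly isolated cells.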
